A study of Mus musculus with 15 samples.

Results

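The genes described are deubiquitinases of mouse zygotes and 2-cell embryos that lie outside the group listed by the study as acting on histone H2A. They were taken by name as every row of the expression table that begins with Usp and a digit, or with Otu, Uchl, Josd or Atxn3, leaving out Usp16 and the H2A enzymes Usp3, Usp12, Usp21, Usp22, Usp28, Usp32 and Usp36, together with Usp29. This rule gave 55 of the 14392 genes of the table. There were 41 Usp genes, 8 genes of the ovarian tumour (OTU) family, 3 ubiquitin carboxy-terminal hydrolases (Uchl), and the Machado-Josephin genes Josd1, Josd2 and Atxn3. A name is not a function, and 1 of the 55, Usp6nl, encodes a GTPase-activating protein for Rab5 and no deubiquitinase. Usp39 encodes a relative without catalytic activity, and Usp53 and Usp54 were long classed as inactive. Usp51, although kept by the rule, is known to remove ubiquitin from H2A at sites of DNA damage. Usp46 was kept as well, although a work cited by the study names it beside Usp12 in H2A and H2B deubiquitination.

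The libraries came from 4 groups on a C57BL/6 background, with 2 libraries per group and 10 pooled embryos per library. WT embryos came from WT mothers. The cKO embryos came from Usp16 fl/fl;Gdf9-Cre mothers, in which the Cre is active in oocytes from the primordial follicle stage, and from WT males, so that they carried no functional maternal Usp16 allele and an intact paternal one. All mothers were superovulated at 21 to 23 days of age, and zygotes (1-cell embryos) and 2-cell embryos of both genotypes were collected. The question addressed by the design was how maternal Usp16, the H2AK119 deubiquitinase of the oocyte, bears on transcripts before and at zygotic genome activation, and here it was asked of the transcripts of the other deubiquitinases.

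Ubiquitin is attached to proteins by a cascade of E1, E2 and E3 enzymes, and deubiquitinases cut it off again, which edits a signal, spares a protein from the proteasome or returns ubiquitin to the free pool. Most are cysteine proteases, of the USP, UCH, OTU and Josephin folds, and they differ in the chains they cut and in their place in the cell. The oocyte stores mRNA for early development, of which much is degraded around the 2-cell stage while the embryonic genome is switched on. Uchl1 is long known as one of the most abundant proteins of the oocyte.

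The promoter sequences of 5 members with a matched window are given first, as examples of patterns in the values that follow. Otud6b, which rose 8.02-fold in WT, and Usp17l5, which rose at least 46.3-fold, had no window. Uchl1 and Usp46 are abundant transcripts of the zygote that were lower in cKO 2-cell embryos, Uchl3 is the relative of Uchl1 that was not, and Usp50 and Atxn3 rose between the zygote and the 2-cell stage. Each line holds the 250 bases before the annotated start, 5′ to 3′ on the strand of the gene, from RefSeq on the GRCm38.p6 build, with a GC box (GGGCGG or its reverse complement CCGCCC) and a CCAAT box (CCAAT or ATTGG) in capitals. The windows lie at chr5:66675871-66676120 on the plus strand, chr5:74068412-74068661 on the minus strand, chr14:101653717-101653966 on the plus strand, chr2:126783461-126783710 on the minus strand and chr12:101958244-101958493 on the minus strand.
Uchl1: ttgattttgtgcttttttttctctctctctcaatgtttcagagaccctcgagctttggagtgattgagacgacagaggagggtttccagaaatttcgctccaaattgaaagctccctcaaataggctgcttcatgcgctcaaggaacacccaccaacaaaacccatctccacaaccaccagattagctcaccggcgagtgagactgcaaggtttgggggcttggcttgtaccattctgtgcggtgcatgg
Usp46: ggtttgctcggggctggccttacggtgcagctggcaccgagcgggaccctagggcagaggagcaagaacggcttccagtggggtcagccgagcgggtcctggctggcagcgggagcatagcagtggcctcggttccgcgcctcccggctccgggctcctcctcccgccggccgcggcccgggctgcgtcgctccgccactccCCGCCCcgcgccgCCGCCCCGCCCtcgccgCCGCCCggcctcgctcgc
Uchl3: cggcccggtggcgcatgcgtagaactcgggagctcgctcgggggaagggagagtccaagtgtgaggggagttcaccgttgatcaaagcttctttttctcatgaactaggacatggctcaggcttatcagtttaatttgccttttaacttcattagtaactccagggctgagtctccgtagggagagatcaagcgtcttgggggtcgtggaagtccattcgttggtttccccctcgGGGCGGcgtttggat
Usp50: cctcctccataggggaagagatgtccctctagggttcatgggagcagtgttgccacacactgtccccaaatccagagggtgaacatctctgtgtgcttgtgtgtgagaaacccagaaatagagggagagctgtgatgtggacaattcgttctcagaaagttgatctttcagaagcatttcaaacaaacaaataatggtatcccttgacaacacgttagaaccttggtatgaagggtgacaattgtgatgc
Atxn3: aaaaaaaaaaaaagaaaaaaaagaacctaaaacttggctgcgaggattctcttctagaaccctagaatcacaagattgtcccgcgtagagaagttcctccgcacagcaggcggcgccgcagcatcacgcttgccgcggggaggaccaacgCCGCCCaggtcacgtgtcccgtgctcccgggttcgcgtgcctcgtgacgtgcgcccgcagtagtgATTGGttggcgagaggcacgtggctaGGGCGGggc

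The windows of Uchl1 and Usp46 differed in base composition. That of Usp46 held 4 GC boxes, 33 CpG and 77.6% G and C, and that of Uchl1 held no GC box, 7 CpG and 48.8% G and C. Uchl3 had 1 GC box and 15 CpG, Usp50 had neither box and 2 CpG, and Atxn3 had 2 GC boxes, 1 CCAAT box and 24 CpG. A RefSeq window was found for 43 of the 55 members, with 47 windows in all. Not matched were Otud6b, Usp1, Usp14, Usp17l5, Usp33, Usp39, Usp42, Usp43, Usp44, Usp5, Usp53 and Usp9x. On either strand, a GC box stood in 28 of the 47 member windows, from 27 members, and in 32.7% of all 32851 windows of this length. The CCAAT box was found in 12 member windows, from 10 members, and in 33.8% of all windows. The TATA box (TATAAA) stood in 2 member windows and in 12.4% of all. GGATTA, the letters bound by homeodomains of the Otx type, stood in 3 member windows and in 6.25% of all. The median window of the members held 22 CpG and the median of all 32851 windows, which were not limited to genes of the expression table, 6. These are matches of letters and not sites of binding.

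Expression was measured as FPKM (fragments per kilobase of transcript and scaled to the number of mapped fragments), in which the authors had set every value under 1 to 1. This floor means that a fold against a group at 1 is a lower bound. The table holds no counts, so that depth is unknown here and the precision rests on 2 libraries per group. Usp16 was at 184 and 187 in WT zygotes, 16.8 and 21.99 in cKO zygotes, 168 and 183 in WT 2-cell embryos and 168 and 84.8 in cKO 2-cell embryos, so that the labels of the zygotes held, while the transcript was back in cKO 2-cell embryos, which carry the paternal allele. The 2 cKO 2-cell libraries stood apart from each other. Their values differed by more than 3-fold for 9 of the 55 members (Otub1, Otub2, Otud3, Uchl5, Usp10, Usp17l5, Usp20, Usp37 and Usp5), compared with 1 member in WT 2-cell embryos and 0 in either zygote group, and in all genes for 1912 compared with 199, 41 and 20. The FPKM of all genes summed to 770989 in cKO 2-cell replicate 2 and to between 547752 and 593317 in the others. All 8 listed oocyte transcripts were above the floor in every library. Between stages in WT, limma called 4 of them lower (Bmp15, Gdf9, Mos and Zar1), and in cKO against WT 2-cell embryos 4 lower (Bmp15, Oosp1, Zar1 and Zp1) and 0 higher, with a median log2 fold change of -1.06 over the 8. Of those not called, Zp2 had a ratio of cKO to WT of 0.496, and Gdf9, Mos and Zp3 had ratios of 1.27, 1.04 and 1.42. Uchl1 and Usp46, described next, were lower in the same libraries as the 4 called lower, and the part of oocyte RNA in those results was not tested. The sum of the 5 listed 2-cell transcripts, Zfp352 and Zscan4d among them, was between 6.45 and 9.99 in zygotes, 439 and 646 in WT and 165 and 183 in cKO 2-cell embryos. Of the 8 markers of cumulus and granulosa cells, 3 were listed, and Fshr was not among them. Their FPKM summed to between 24.3 and 28.7 in zygotes, 4.38 and 10.3 in WT 2-cell embryos and 3 and 3.32 in cKO 2-cell embryos, the latter near the floor for 3 genes. Within the list, Cyp19a1 fell in WT, while Tnfaip6 was at 1 in every zygote library and at 1.83 and 7.45 in WT 2-cell embryos. The 4 listed of 6 sperm markers summed to between 16.5 and 23.1 in zygotes, 7.28 and 11.4 in WT 2-cell embryos and 4 and 4.97 in cKO 2-cell embryos, and among them Prm2 fell in WT while Tnp1 rose from 1 in every zygote library to 4.28 and 5.69. The part of such RNA in the changes between stages was not tested.

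Uchl1 was the most abundant of the 55 transcripts in zygotes of both genotypes and in WT 2-cell embryos. Its FPKM was 1577 and 1279 in WT zygotes, 1384 and 1119 in cKO zygotes, 793 and 762 in WT 2-cell embryos and 152 and 114 in cKO 2-cell embryos. It alone made up 47.0% and 40.7% of the FPKM of the 55 genes in WT zygotes, 34.99% and 32.9% in WT 2-cell embryos and 8.20% and 7.89% in cKO 2-cell embryos, in which it ranked 5 among the members. Together the 55 genes held 0.566% and 0.563% of all FPKM in WT zygotes and 0.525% and 0.495% in cKO zygotes, compared with 0.393% and 0.424% in WT 2-cell embryos. The lowest shares were those of cKO 2-cell embryos, at 0.319% and 0.188%. After Uchl1, the order in WT zygotes was Usp46, Uchl3, Usp15 and Otub1, and the first 5 genes held 74.8% and 71.6% of the sum. Above 10 FPKM were 30 and 29 members in WT zygotes, 32 and 31 in cKO zygotes, 32 and 36 in WT 2-cell embryos and 29 and 20 in cKO 2-cell embryos. Above the floor in every library were 40 members, and 6 (Otud6a, Usp17l5, Usp25, Usp40, Usp44 and Usp9y) were at the floor in every zygote library.

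**Figure D1:**
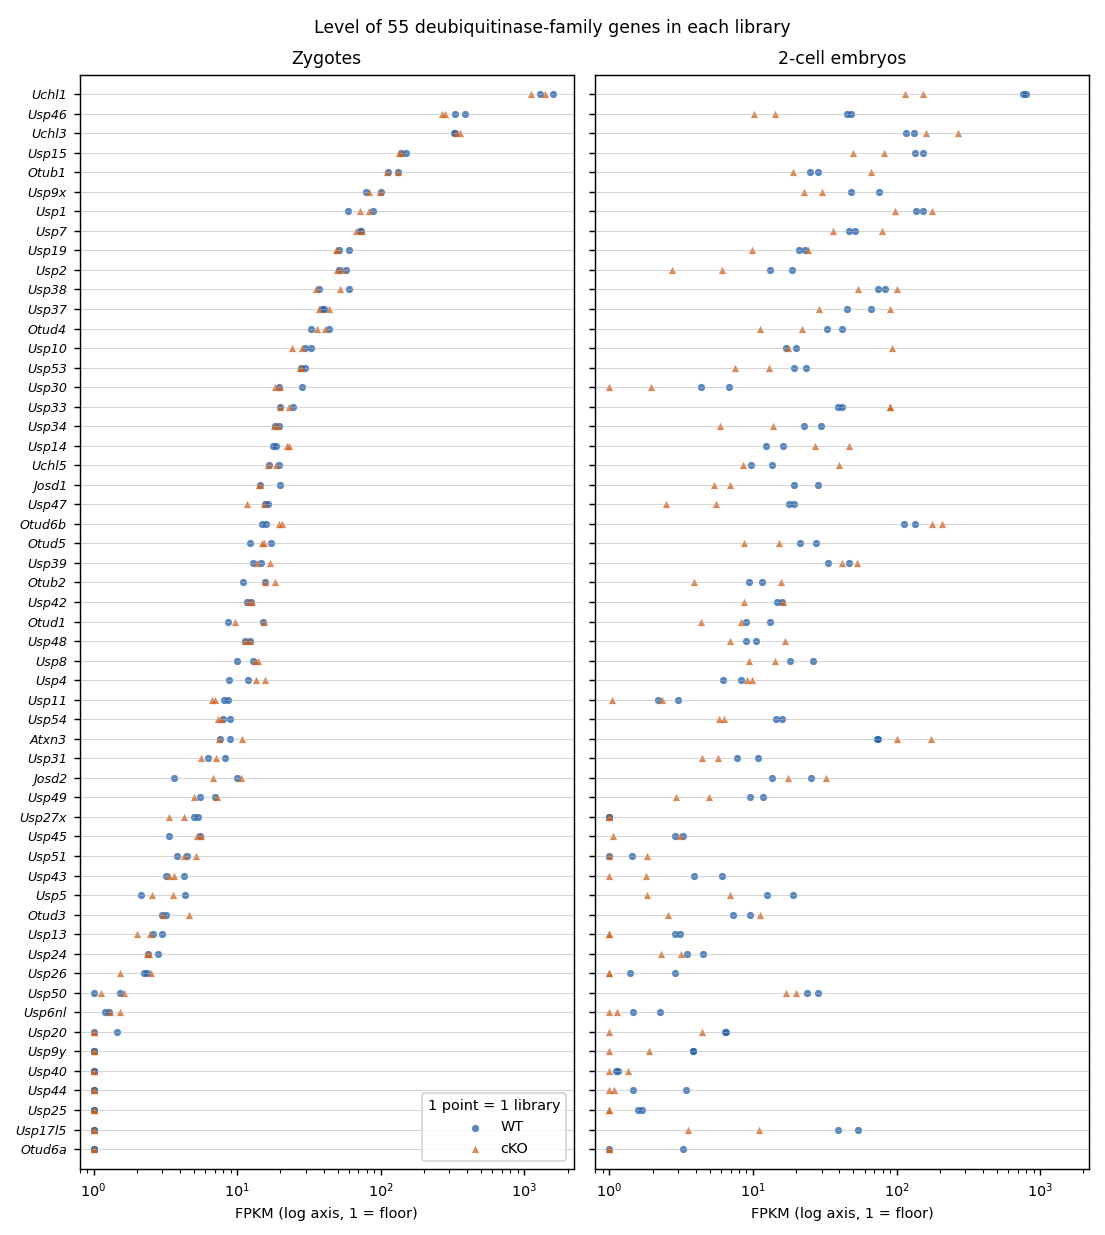
FPKM of the 55 genes on a log axis in the 4 zygote libraries (left) and the 4 2-cell libraries (right), 1 point per library, WT as circles and cKO as triangles, ordered by the mean of WT zygotes. WT and cKO points lie together in zygotes, while in 2-cell embryos Uchl1 drops from 793 and 762 in WT to 152 and 114 in cKO.

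In WT embryos, members changed in both directions between the zygote and the 2-cell stage. By the rule of the study, a ratio of group means over 3, Atxn3, Otud6b, Usp17l5, Usp20, Usp5, Usp50 and Usp9y were higher in 2-cell embryos (7 of 55, 26% of all genes) and Otub1, Usp11, Usp2, Usp27x, Usp30, Usp46 and Usp51 were lower (7 of 55, 8.78% of all genes). Thus 12.7% of the members were past the rule in each direction. Both 2-cell libraries lay above both zygote libraries for 26 members (49.4% of all genes) and below them for 19 (26.4%). With limma, which was fitted to log2(FPKM + 1) of all 14392 genes with 1 estimate of the spread for the 4 groups and a threshold of 0.05 on the adjusted p, 12 members rose (34.2% of all genes) and 10 fell (15.5%). Besides those past 3-fold, these were Usp25, Usp33, Usp39, Usp54 and Usp8, which rose, and Uchl1, Uchl3 and Usp19, which fell. The median log2 fold change was 0.31 over the members and 0.28 over all genes. For the counts of members that follow, the shares of all genes are not given here. The count that rose and the count that fell depended on the scaling, with 8 and 14 after scaling by median ratios, which moved the median of all genes to 0.03, and 6 and 17 after quantile normalization, which moved it to -0.04. Without single libraries, between 8 and 16 members rose and between 6 and 13 fell. The count that fell was 6 without WT zygote replicate 1, without WT 2-cell replicate 1 and without WT 2-cell replicate 2.

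**Figure D2:**
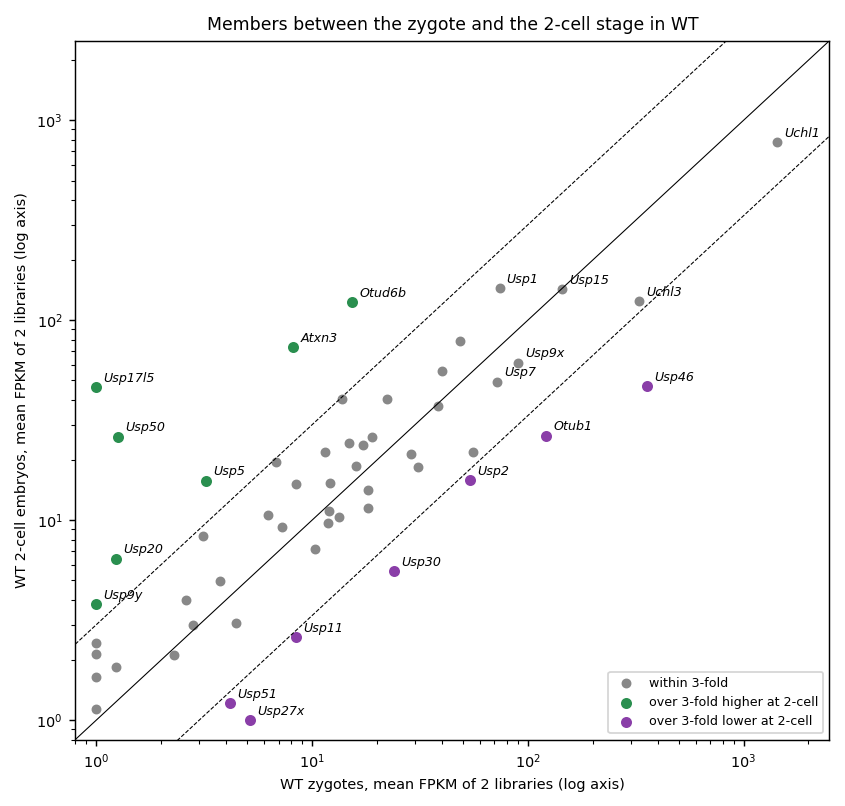
Mean FPKM of the 2 WT zygote libraries (x axis) and the 2 WT 2-cell libraries (y axis), both on log axes, 1 point per member, with lines at equality and at 3-fold. The 7 members above the upper line and the 7 below the lower line are named, and Usp46 lies farthest below at 357 and 46.9.

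In zygotes, cKO and WT were close for every member. The ratio of group means was between 0.735 (Usp27x) and 1.41 (Usp4) with a median of 0.993, and all 55 were within 2-fold. No member was more than 3-fold higher (0 of 55, 0.104% of all genes) or lower (0 of 55, 0.0486%), and limma called 0 higher (0.0208%) and 0 lower (0%). Unadjusted, limma gave 0 members higher (324 of all 14392 genes) and 1 lower (84 of all genes), Usp27x, at p under 0.05. The adjusted test was weak here, as it did not call the deleted gene itself. Usp16 was 9.58-fold lower in cKO zygotes with both libraries below WT (log2 fold change -3.21, SE 0.34, limma adjusted p = 0.191), so that a count of 0 does not show that members were unaltered. The cKO libraries lay above both WT libraries for 7 members (15.8% of all genes) and below both for 10 (10.2%). The member with the lowest ratio, Usp27x, an X-linked homologue of Usp22, was at 5.30 and 5.02 in WT zygotes and 3.33 and 4.25 in cKO zygotes, and Usp46 at 331 and 383 in WT zygotes and 282 and 268 in cKO zygotes. Usp4, a paralogue of Usp15, was at 11.9 and 8.82 in WT zygotes and 15.8 and 13.5 in cKO zygotes. The groups did not overlap for these 3 genes, but the differences did not pass the test (limma adjusted p = 1 for each), and the smallest two-sided p of an exact permutation test of 2 libraries against 2 is 0.333.

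In 2-cell embryos, members were lower in cKO more often than higher. More than 3-fold lower were Josd1, Uchl1, Usp17l5, Usp2, Usp30, Usp43, Usp46, Usp47 and Usp5 (9 of 55, 13.5% of all genes), and none was more than 3-fold higher (0 of 55, 2.84%). Usp10, at 2.998-fold, lay just under the limit. The share of 16.4% of the members that were lower was near that of all genes. The WT pair lay wholly above the cKO pair for 29 members (43.4% of all genes) and wholly below it for 6 (14%), Atxn3, Otud6b, Uchl3, Usp14, Usp33 and Usp4. In limma 18 members fell (24.6% of all genes) and Otud6b, Usp14 and Usp33 rose (3 of 55, 6.16%). At an unadjusted p under 0.05, limma gave 25 members lower (4806 of all 14392 genes) and 5 higher (1315 of all genes). The 18 were Josd1, Otud4, Uchl1, Usp13, Usp15, Usp17l5, Usp2, Usp25, Usp30, Usp34, Usp43, Usp46, Usp47, Usp49, Usp53, Usp54, Usp9x and Usp9y. The median log2 fold change was -0.48 over the members and -0.30 over all genes. After scaling by median ratios, which moved the median of all genes to 0, the median of the members was -0.16, and 3 members were more than 3-fold higher (Usp10, Usp14 and Usp33) and 3 lower (Uchl1, Usp17l5 and Usp47), while limma gave 3 higher and 10 lower. After quantile normalization limma gave 3 higher and 7 lower. The shares of all genes called after each scaling are not given here.

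These counts leaned on the cKO 2-cell libraries, which limma describes with a spread shared with the tighter zygote groups. With a weight for each group, it called 5 members lower (Uchl1, Usp17l5, Usp25, Usp46 and Usp9y) and 0 higher, and with the 4 2-cell libraries alone 0 and 0. Without cKO 2-cell replicate 2, 5 members were more than 3-fold lower and 3 (Uchl5, Usp10 and Usp14) higher, and without cKO 2-cell replicate 1 the counts were 15 and 0. Without WT 2-cell replicate 2, Usp10 was the 1 member more than 3-fold higher. Uchl1, Usp46, Usp47, Josd1 and Usp17l5 stayed more than 3-fold lower without each of the 4 libraries in turn. Usp2, Usp30, Usp43 and Usp5 had ratios of 0.381, 0.349, 0.359 and 0.435 without cKO 2-cell replicate 2, Usp2, Usp30 and Usp5 of 0.335, 0.341 and 0.348 without WT 2-cell replicate 1, and Usp43 of 0.362 without WT 2-cell replicate 2. In limma, between 10 and 30 members were lower without single libraries, with 10 without WT 2-cell replicate 1, 11 without cKO zygote replicate 1 or 2 and 30 without cKO 2-cell replicate 1, and between 1 and 8 were higher, with 1 without WT 2-cell replicate 1 or either cKO zygote replicate, 5 without cKO 2-cell replicate 1 and 8 without cKO 2-cell replicate 2. The shares of all genes under these alternatives are not given here, so the counts do not set the members apart from other genes. Less RNA of a gene per embryo and a shift in the composition of the library cannot be told apart in FPKM.

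**Figure D3:**
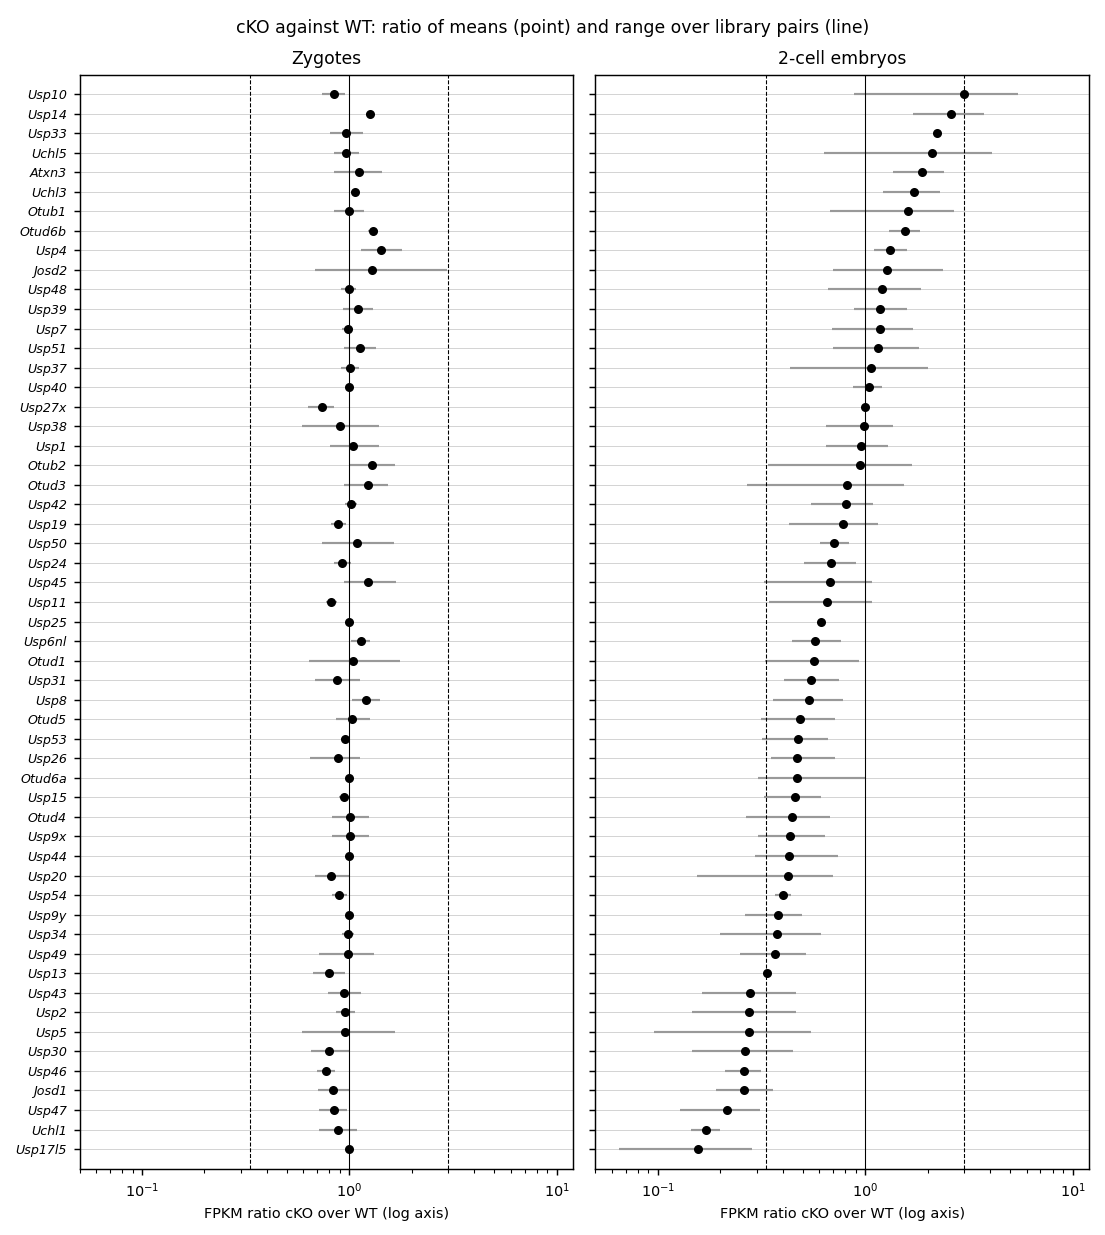
Ratio of FPKM in cKO to WT on a log axis for each member, in zygotes (left) and 2-cell embryos (right), ordered by the 2-cell ratio. Points are ratios of group means, lines span the 4 ratios of single libraries, and dashed lines mark 3-fold. The zygote points lie between 0.735 and 1.41 and the 2-cell points between 0.157 and 2.998.

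Among the enzymes of the proteasome and of free ubiquitin, the 3 UCH genes took separate courses. Uchl1, which binds and stabilizes monoubiquitin and lies on chromosome 5 of mm9 (67067360 to 67078472, plus strand), fell from the zygote to the 2-cell stage in WT (log2 fold change -0.87, SE 0.25, limma adjusted p = 0.0303), a call lost in 9 of 17 alternatives, among them the fits without each of the WT zygote, cKO zygote and WT 2-cell libraries in turn (adjusted p of up to 0.139). In cKO 2-cell embryos it was 5.85-fold lower than in WT, with both libraries far below (log2 fold change -2.55, SE 0.25, limma adjusted p = 0.00213), which held without each single library and was lost with the 4 2-cell libraries alone (adjusted p = 0.0598). Exons of Uchl1 share 214 bases with the lincRNA Gm16832 on the opposite strand. Uchl3, which processes ubiquitin precursors, was at 331 and 323 in WT zygotes, 336 and 359 in cKO zygotes, 132 and 116 in WT 2-cell embryos and 161 and 266 in cKO 2-cell embryos. It fell at the 2-cell stage in WT (limma adjusted p = 0.00652), and in cKO 2-cell embryos both libraries lay above WT, 1.72-fold on average, without passing the test (limma adjusted p = 0.0891). Per kilobase, Uchl1 stood above Uchl3 in every zygote and WT 2-cell library, and below it in both cKO 2-cell libraries. Uchl5, bound to the proteasome, was at 9.69 and 13.5 in WT 2-cell embryos and 39.8 and 8.53 in cKO 2-cell embryos, where the cKO libraries lay on either side of WT.

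Usp14, the other proteasome-bound enzyme, was at 18.6 and 17.8 in WT zygotes, 23.1 and 22.4 in cKO zygotes, 16.1 and 12.4 in WT 2-cell embryos and 46.4 and 27.2 in cKO 2-cell embryos. It was 2.59-fold higher in cKO 2-cell embryos (log2 fold change 1.27, SE 0.29, limma adjusted p = 0.0209), a call lost without either WT 2-cell or either cKO zygote library (adjusted p of up to 0.145 among the alternatives). Usp5, which takes apart unanchored ubiquitin chains, rose 4.88-fold in WT (log2 fold change 2.01, SE 0.55, limma adjusted p = 0.0235), a call lost without each single zygote or WT 2-cell library (adjusted p of up to 0.159 among the alternatives). Its FPKM was 4.32 and 2.15 in WT zygotes, 3.58 and 2.56 in cKO zygotes, 19.1 and 12.5 in WT 2-cell embryos and 6.87 and 1.82 in cKO 2-cell embryos. The 3.63-fold lower mean in cKO 2-cell embryos came with replicates more than 3-fold apart and did not pass the test (limma adjusted p = 0.051). Its paralogue Usp13 was near the floor throughout, at 3.08 and 2.89 in WT 2-cell embryos and 1 in both libraries of cKO 2-cell embryos. Of the 6 genes of this group, limma thus called 1 higher and 2 lower in cKO 2-cell embryos (6.16% and 24.6% of all genes).

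Enzymes of endosomes, membranes and mitochondria, with 8 members, included 4 that fell and 1 that rose in cKO 2-cell embryos by limma (24.6% and 6.16% of all genes). Usp33 was the one that rose. Its FPKM was 19.8 and 24.6 in WT zygotes, 19.9 and 22.9 in cKO zygotes, 39.3 and 41.8 in WT 2-cell embryos and 90.6 and 89.6 in cKO 2-cell embryos, the highest values being the closely matching cKO 2-cell pair. It rose at the 2-cell stage in WT (log2 fold change 0.85, SE 0.19, limma adjusted p = 0.0109) and was 2.22-fold higher in cKO than in WT 2-cell embryos (log2 fold change 1.13, SE 0.19, limma adjusted p = 0.00827). The call between genotypes held without each single library and was lost with group weights and with the 4 libraries alone, and that between stages was lost under scaling by median ratios, quantile normalization and without WT zygote replicate 1 (adjusted p of up to 0.137). Usp20, the paralogue of Usp33 that acts on cell surface receptors, was at 1.46 and 1 in WT zygotes, 1 in both libraries of cKO zygotes, 6.49 and 6.34 in WT 2-cell embryos and 4.44 and 1 in cKO 2-cell embryos. It rose at the 2-cell stage in WT (limma adjusted p = 0.0174), with a call lost without each single WT library (adjusted p of up to 0.114 among the alternatives).

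Usp30, which opposes parkin on the outer mitochondrial membrane, was at 28.1 and 19.7 in WT zygotes, 19.8 and 18.3 in cKO zygotes, 6.81 and 4.31 in WT 2-cell embryos and 1.94 and 1 in cKO 2-cell embryos. It fell 4.30-fold between stages in WT (log2 fold change -1.93, SE 0.33, limma adjusted p = 0.00387) and was lower again in cKO 2-cell embryos by 3.78-fold, a lower bound with 1 library at the floor (log2 fold change -1.41, SE 0.33, limma adjusted p = 0.0227, up to 0.198 among the alternatives). Usp2, which has cyclin D1 among its substrates, had the same order of groups. Its FPKM was 57.7 and 50.8 in WT zygotes, 54.1 and 49.6 in cKO zygotes, 18.6 and 13.1 in WT 2-cell embryos and 6.04 and 2.72 in cKO 2-cell embryos. It fell 3.42-fold in WT (limma adjusted p = 0.00717, ratio 0.343 and adjusted p = 0.0608 without WT 2-cell replicate 2) and was 3.62-fold lower in cKO 2-cell embryos (limma adjusted p = 0.0147, up to 0.143 among the alternatives). The exons of Usp2 share 200 bases with those of Rnf26 on the opposite strand, and Smart-seq2 libraries do not mark the strand. Exons on the opposite strand also overlap those of Usp14 (53 bases, Thoc1), Usp43 (609 bases, 9130017K11Rik) and Usp54 (510 bases, 1810062O18Rik). Others include Usp38 (1152 bases, Gm9725), Usp7 (70 bases, AC156026.1), Usp31 (65 bases, 1700069B07Rik), Usp45 (57 bases, 2610029I01Rik) and Usp37 (50 bases, Vil1). On the same strand, Usp10 shares 99 exon bases with Gm20388 and Usp9x shares 9 with Gm15027.

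Usp9x, the large X-linked enzyme related to fat facets of the fly, was at 79.1 and 100.4 in WT zygotes, 82.9 and 98.4 in cKO zygotes, 47.8 and 75.1 in WT 2-cell embryos and 30.4 and 22.8 in cKO 2-cell embryos. It did not pass the test between stages in WT (limma adjusted p = 0.159), and in cKO 2-cell embryos it fell (log2 fold change -1.16, SE 0.29, limma adjusted p = 0.0289), a call lost in 11 of 18 alternatives. Its Y-linked homologue Usp9y was at the floor in every zygote library and at 3.81 in both libraries of WT 2-cell embryos and 1.88 and 1 in cKO 2-cell embryos. It rose in WT at least 3.81-fold (limma adjusted p = 0.00152) and was lower in cKO 2-cell embryos (limma adjusted p = 0.00853, up to 0.210 among the alternatives). The share of male embryos in each pool of 10 is not known. Usp19, anchored in the endoplasmic reticulum, was at 59.7 and 51.4 in WT zygotes, 49.3 and 48.6 in cKO zygotes, 23.02 and 21.01 in WT 2-cell embryos and 24.3 and 9.89 in cKO 2-cell embryos and fell at the 2-cell stage in WT (limma adjusted p = 0.0334), but not without each single zygote or WT 2-cell library (up to 0.161 among the alternatives). Usp8, an endosomal enzyme that spares receptors from lysosomal sorting, was at 12.9 and 9.92 in WT zygotes and 25.97 and 18.1 in WT 2-cell embryos and rose (limma adjusted p = 0.0474), a call lost in 9 of 17 alternatives (up to 0.368).

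Of the 10 enzymes of DNA repair and the cell cycle, 1 fell and 0 rose in cKO 2-cell embryos by limma (24.6% and 6.16% of all genes). This was Usp47, which acts on DNA polymerase beta. Its FPKM was 15.7 and 16.4 in WT zygotes, 11.7 and 15.4 in cKO zygotes, 19.4 and 17.9 in WT 2-cell embryos and 5.54 and 2.49 in cKO 2-cell embryos. It lay between 11.7 and 19.4 in the first 3 groups and 4.64-fold lower in cKO than in WT 2-cell embryos (log2 fold change -2.04, SE 0.34, limma adjusted p = 0.00794), a call lost without WT 2-cell replicate 1 (adjusted p of up to 0.103 among the alternatives). Usp1, which acts with Wdr48 on ubiquitinated PCNA and FANCD2, was the second most abundant transcript of the 55 in WT 2-cell embryos by mean. It was at 59.05 and 88.9 in WT zygotes, 71.8 and 82.4 in cKO zygotes, 137 and 152 in WT 2-cell embryos and 177 and 98.04 in cKO 2-cell embryos. In neither comparison did it pass the test (limma adjusted p = 0.0529 between stages and 0.816 between genotypes at the 2-cell stage). Usp7, which acts on MDM2 and p53, was at 71.6 and 72.99 in WT zygotes, 67.1 and 74.5 in cKO zygotes, 51.7 and 46.7 in WT 2-cell embryos and 79.7 and 35.9 in cKO 2-cell embryos, and Usp37, which acts on cyclin A, at 39.2 and 40.5 in WT zygotes, 37.03 and 43.7 in cKO zygotes, 44.8 and 66.6 in WT 2-cell embryos and 90.2 and 28.8 in cKO 2-cell embryos. For both, the cKO 2-cell libraries lay on either side of the WT pair.

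Usp10, a partner of G3BP1 that acts on p53, showed how far the cKO 2-cell replicates could differ. It was at 32.5 and 29.7 in WT zygotes, 28.3 and 23.995 in cKO zygotes, 17.05 and 19.9 in WT 2-cell embryos and 93.3 and 17.6 in cKO 2-cell embryos, so that the ratio of 2.998 between genotypes rested on replicate 1 (limma adjusted p = 0.275). Usp11, an X-linked relative of Usp4 and Usp15, fell 3.24-fold in WT (log2 fold change -1.40, SE 0.29, limma adjusted p = 0.00846), with a ratio of 0.358 without WT 2-cell replicate 1, and was at 8.70 and 8.12 in WT zygotes, 7.05 and 6.69 in cKO zygotes, 2.18 and 3.01 in WT 2-cell embryos and 2.34 and 1.04 in cKO 2-cell embryos. Usp51, on the X chromosome as well, was at 4.51 and 3.83 in WT zygotes, 5.14 and 4.24 in cKO zygotes, 1.43 and 1 in WT 2-cell embryos and 1.82 and 1 in cKO 2-cell embryos. It fell in WT (limma adjusted p = 0.00514), with a ratio of 0.343 without WT 2-cell replicate 2. For neither of these was a difference between genotypes called in 2-cell embryos (limma adjusted p = 0.284 and 0.761).

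In the remaining Usp genes, 14 that act in signalling or are little studied, 6 fell and 0 rose in cKO 2-cell embryos by limma (24.6% and 6.16% of all genes). Usp46, a paralogue of Usp12 that needs the partner Wdr48, had the largest fold decrease between stages among the members. It lies on chromosome 5 of mm9 (74394487 to 74464455, minus strand) and was at 331 and 383 in WT zygotes, 282 and 268 in cKO zygotes, 48.4 and 45.5 in WT 2-cell embryos and 14.2 and 10.2 in cKO 2-cell embryos. In WT it fell 7.61-fold (log2 fold change -2.90, SE 0.21, limma adjusted p = 0.000199), and cKO 2-cell embryos were 3.84-fold below WT (log2 fold change -1.88, SE 0.21, limma adjusted p = 0.00284). Both calls held without each single library, the second being lost only with the 4 2-cell libraries alone (adjusted p = 0.0646) and its ratio being 0.358 after scaling by median ratios. Exons of Usp46 share 74 and 288 bases with 2 processed transcripts on the opposite strand. Usp15, which acts on SMADs, was at 139 and 149.7 in WT zygotes, 139 and 134 in cKO zygotes, 134 and 152 in WT 2-cell embryos and 82.3 and 49.7 in cKO 2-cell embryos. Its difference between stages in WT was smaller than its standard error (log2 fold change -0.01, SE 0.26, limma adjusted p = 1) and fell in cKO 2-cell embryos (log2 fold change -1.15, SE 0.26, limma adjusted p = 0.0219), a call lost in 7 of 18 alternatives.

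Usp34, which acts on axin in the Wnt pathway, fell in cKO 2-cell embryos from 22.5 and 29.8 in WT 2-cell embryos to 13.7 and 5.92 in cKO 2-cell embryos (limma adjusted p = 0.0335), and Usp49, a paralogue of Usp44 that acts on H2B, from 11.7 and 9.58 in WT 2-cell embryos to 4.95 and 2.90 in cKO 2-cell embryos (limma adjusted p = 0.0276). Each call was lost in 11 of 18 alternatives. Both overlap another gene, since 1321 exon bases of Usp34 lie opposite Ahsa2 and 5580 exon bases of Usp49 are shared with Med20 on the same strand. The little-studied Usp43 was at 3.86 and 6.13 in WT 2-cell embryos and 1.79 and 1 in cKO 2-cell embryos, 3.58-fold lower in cKO (limma adjusted p = 0.0168, up to 0.186 among the alternatives). Usp38 was at 37.3 and 60.2 in WT zygotes, 35.6 and 51.8 in cKO zygotes, 83.5 and 74.5 in WT 2-cell embryos and 101 and 54.1 in cKO 2-cell embryos and passed no test. Usp27x, at 5.30 and 5.02 in WT zygotes and 1 in both libraries of WT 2-cell embryos, fell at least 5.16-fold in WT (limma adjusted p = 0.000336). The call for Usp25, a paralogue of Usp28, rested on 2 values just above the floor, as it was at 1.58 and 1.70 in WT 2-cell embryos and 1 in both libraries of cKO 2-cell embryos and at 1 in all zygote libraries.

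Usp50, an enzyme without a full catalytic triad, rose between the zygote and the 2-cell stage in WT. It was at 1.53 and 1 in WT zygotes, 1.64 and 1.13 in cKO zygotes, 23.96 and 28.3 in WT 2-cell embryos and 17.1 and 19.999 in cKO 2-cell embryos. In WT it rose at least 20.7-fold (log2 fold change 3.59, SE 0.25, limma adjusted p = 0.00018), and the cKO 2-cell libraries lay below the WT pair at a ratio of 0.71 without passing the test (limma adjusted p = 0.212). The span of Usp50 overlaps that of Usp8 on the opposite strand of chromosome 2, with no shared exon bases in the annotation. Exons of Usp50 share 204 bases with Gm10774 on the same strand.

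The spliceosome protein Usp39, which has no catalytic activity, was at 14.8 and 12.9 in WT zygotes, 16.8 and 13.7 in cKO zygotes, 33.4 and 46.98 in WT 2-cell embryos and 52.9 and 41.6 in cKO 2-cell embryos. It rose in WT (log2 fold change 1.46, SE 0.25, limma adjusted p = 0.00407) and was close between genotypes in 2-cell embryos, at a ratio of 1.18 with overlapping libraries (limma adjusted p = 0.507). Usp53, a tight junction protein, and its paralogue Usp54 both fell in cKO 2-cell embryos. Usp53 was at 19.4 and 23.6 in WT 2-cell embryos and 12.9 and 7.49 in cKO 2-cell embryos (limma adjusted p = 0.0326, lost in 11 of 18 alternatives) and Usp54 at 14.4 and 15.8 in WT 2-cell embryos and 5.78 and 6.32 in cKO 2-cell embryos (limma adjusted p = 0.00851, lost in 3 of 18). In WT, Usp54 rose between stages from 8.88 and 7.91 in zygotes (limma adjusted p = 0.0193, up to 0.727 among the alternatives, the highest after quantile normalization).

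In the OTU family of 8, Otud6b rose and Otub1 fell between the zygote and the 2-cell stage. Otud6b was at 14.9 and 15.9 in WT zygotes, 19.6 and 20.5 in cKO zygotes, 113 and 134 in WT 2-cell embryos and 175 and 208 in cKO 2-cell embryos, with no overlap between any of the 4 groups. It rose 8.02-fold in WT (log2 fold change 2.92, SE 0.19, limma adjusted p = 0.000147) and was 1.55-fold higher in cKO than in WT 2-cell embryos (log2 fold change 0.63, SE 0.19, limma adjusted p = 0.0481), a call lost in 13 of 18 alternatives. Otub1, which cuts K48-linked chains and inhibits UBC13 without cleavage, was at 131 and 112 in WT zygotes, 132 and 110.1 in cKO zygotes, 24.8 and 28.2 in WT 2-cell embryos and 66.4 and 18.99 in cKO 2-cell embryos. It fell 4.61-fold in WT (log2 fold change -2.16, SE 0.53, limma adjusted p = 0.0166), a call lost without each single WT library (adjusted p of up to 0.117 among the alternatives), and the 2 cKO 2-cell libraries lay above and below WT. Otud4, a scaffold for Usp7 and Usp9x in alkylation repair, was at 32.7 and 43.7 in WT zygotes, 36.1 and 40.8 in cKO zygotes, 32.6 and 41.9 in WT 2-cell embryos and 21.9 and 11.1 in cKO 2-cell embryos and fell in cKO 2-cell embryos (log2 fold change -1.18, SE 0.35, limma adjusted p = 0.0459), which did not hold in 12 of 18 alternatives.

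Of the 3 Machado-Josephin genes, Atxn3 was called between stages in WT and Josd1 between genotypes in 2-cell embryos. Atxn3, which encodes ataxin 3, a partner of VCP, was at 7.56 and 8.86 in WT zygotes, 10.8 and 7.44 in cKO zygotes, 74.3 and 72.7 in WT 2-cell embryos and 101 and 174 in cKO 2-cell embryos. It rose 8.95-fold in WT (log2 fold change 3.02, SE 0.31, limma adjusted p = 0.000571), in all 17 alternatives, and both cKO 2-cell libraries lay above the WT pair by 1.87-fold on average without passing the test (limma adjusted p = 0.0889). Josd1, a membrane-linked enzyme, was at 19.996 and 14.4 in WT zygotes, 14.1 and 14.4 in cKO zygotes, 28.2 and 19.3 in WT 2-cell embryos and 5.37 and 6.92 in cKO 2-cell embryos. It passed no test between stages in WT (limma adjusted p = 0.238) and was 3.86-fold lower in cKO 2-cell embryos (log2 fold change -1.78, SE 0.28, limma adjusted p = 0.00704), a call that held without each single library. Josd2 was at 9.96 and 3.61 in WT zygotes, 10.6 and 6.83 in cKO zygotes, 25.3 and 13.6 in WT 2-cell embryos and 32.1 and 17.7 in cKO 2-cell embryos, with replicates 2.76-fold apart in WT zygotes, and passed no test.

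**Figure D4:**
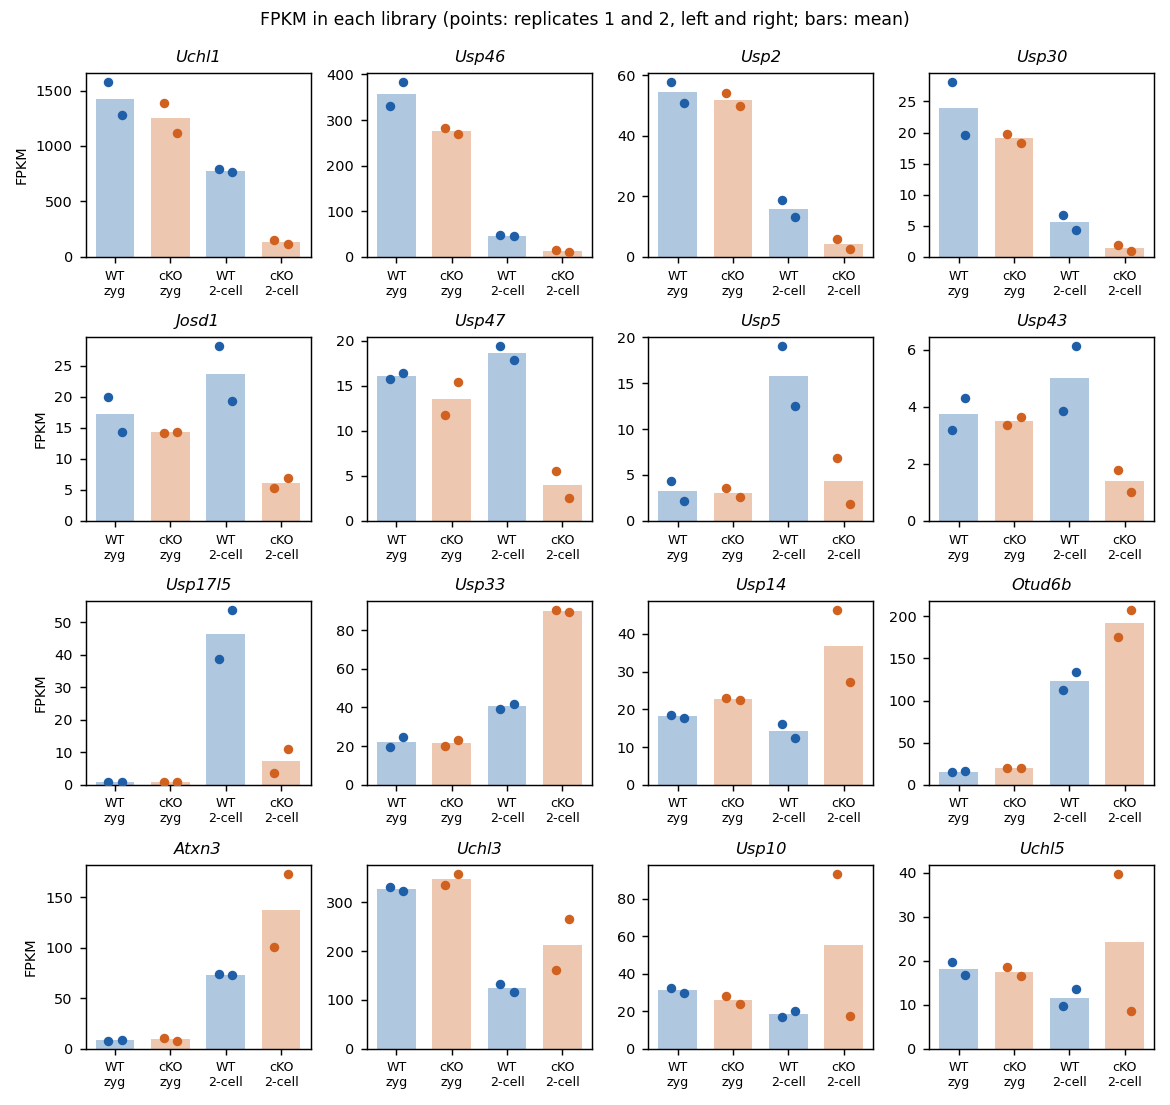
FPKM of 16 members in each library on linear axes that start at 0, with bars for the mean of 2 libraries, WT in blue and cKO in orange, zygotes to the left and 2-cell embryos to the right of each panel. The first 9 panels are the members more than 3-fold lower in cKO 2-cell embryos, Usp33, Usp14 and Otud6b lie higher in both cKO 2-cell libraries, and for Usp10 and Uchl5 cKO replicate 1 alone is high.

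Usp17l5, a tandem copy of the Usp17 family on chromosome 7 of mm9 (110563586 to 110568394), had the largest fold of any member between stages in WT. It was at the floor in all 4 zygote libraries and at 38.8 and 53.9 in WT 2-cell embryos and 3.51 and 11.02 in cKO 2-cell embryos. It rose at least 46.3-fold in WT (log2 fold change 4.55, SE 0.47, limma adjusted p = 0.000565) and was 6.38-fold lower in cKO than in WT 2-cell embryos (log2 fold change -2.67, SE 0.47, limma adjusted p = 0.00955), with an adjusted p of up to 0.110 among the alternatives, among them the fit without WT 2-cell replicate 2. The ratio of cKO to WT rested on the cKO library used, at 0.238 without cKO 2-cell replicate 1, above the 0.147 of Uchl1, and at 0.0757 without cKO 2-cell replicate 2. The copies of this family are nearly identical, and how the authors' counting divided reads among them is not given in the sources used here, so the value of a single copy is uncertain. Listed under older names were Dub1, at 20.03 and 20.7 in WT 2-cell embryos and 2.86 and 2.65 in cKO 2-cell embryos, and Dub1a, at 127 and 197 in WT 2-cell embryos and 47.9 and 68.6 in cKO 2-cell embryos, and both were at the floor in all zygote libraries. All 3 genes had both cKO libraries below both WT libraries. Usp26, a testis gene on the X chromosome, stayed between 1 and 2.85 throughout.

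**Figure D5:**
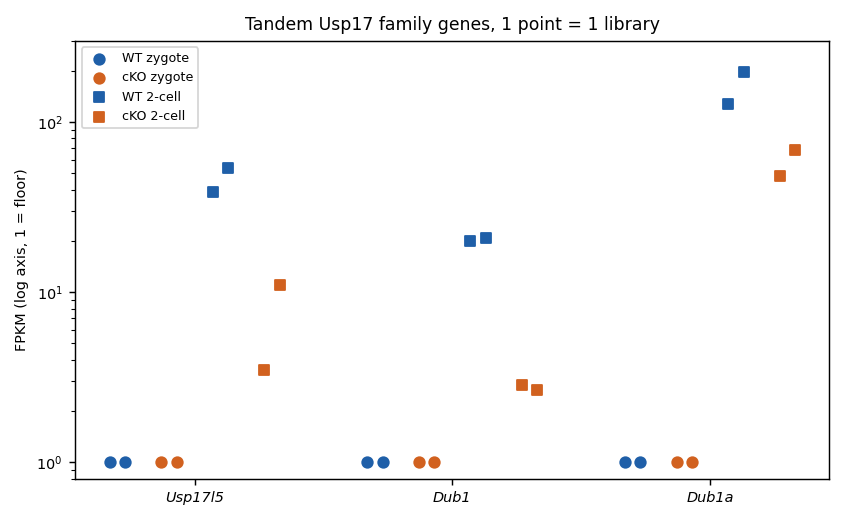
FPKM of Usp17l5, Dub1 and Dub1a on a log axis, 1 point per library, zygotes as circles and 2-cell embryos as squares, WT in blue and cKO in orange. All zygote points lie at the floor of 1, and in each gene both cKO 2-cell points lie under both WT points.

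The 13 members not yet described were called by neither rule in any of these comparisons. They were Otub2, Otud1, Otud3, Otud5, Otud6a, Usp24, Usp31, Usp40, Usp42, Usp44, Usp45, Usp48 and Usp6nl, and no value among them exceeded 27.6, reached by Otud5 in WT 2-cell embryos. Otud6a, Usp40 and Usp44 were at the floor in every zygote library. Otud5, which acts on TRAF3, was at 27.6 and 21.3 in WT 2-cell embryos and 15.1 and 8.63 in cKO 2-cell embryos, and Usp31 at 7.68 and 10.9 in WT 2-cell embryos and 5.74 and 4.42 in cKO 2-cell embryos, with both cKO libraries below WT in each case (limma adjusted p = 0.0567 and 0.0939). Otub2, the paralogue of Otub1, was at 9.40 and 11.5 in WT 2-cell embryos and 15.8 and 3.88 in cKO 2-cell embryos, and Otud3 at 7.23 and 9.53 in WT 2-cell embryos and 11.2 and 2.58 in cKO 2-cell embryos, where only cKO replicate 2 was below WT.

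The difference between genotypes was itself different at the 2 stages for 5 members by the interaction term of limma (11.8% of all genes). The log2 effect at the 2-cell stage minus that in zygotes was -2.36 for Uchl1 (SE 0.36, limma adjusted p = 0.0171), -1.5 for Usp46 (SE 0.30, 0.0316) and 1.18 for Usp33 (SE 0.27, 0.0431). The others were Usp9y and Usp25, which rest on values near the floor. Shares of all genes are not given for the counts that follow. The count was 0 with the replicate number as a block, 0 without each single zygote library in turn, 3 without WT 2-cell replicate 1, and 24 and 17 without cKO 2-cell replicate 1 and 2.

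Neighbouring parts of the ubiquitin system were read from lists, beside which stand the 6.16% of all genes that limma called higher and the 24.6% that it called lower in cKO 2-cell embryos. Of 10 listed H2A deubiquitinases outside the rule, Usp3, Usp21 and Bap1 were more than 3-fold lower in cKO 2-cell embryos (13.5% of all genes). By the same rule 0 were higher (2.84% of all genes). In this list limma called 4 lower, Usp3, Usp21, Bap1 and Usp28. Another list held 29 names of deubiquitinases, with some genes under both an older and a newer name, as with Fam63a and Mindy1. Of these names 21 were listed, so that a name not listed need not be a gene that is absent. Among the 21, limma called 2 higher, Psmd14 and Fam105b, and 7 lower in cKO 2-cell embryos. Psmd14, the zinc-dependent enzyme of the proteasome lid, was at 43.5 and 52.7 in WT 2-cell embryos and 244 and 104 in cKO 2-cell embryos, and Pan2, a relative that acts in deadenylation, at 22.3 and 22.1 in WT 2-cell embryos and 5.21 and 5.14 in cKO 2-cell embryos. Of 20 listed partners of the members, limma called 3 higher (Stam, Stam2 and Ube2n) and 2 lower (Rnf31 and Wdr20a) in cKO 2-cell embryos, with Stam2, the endosomal partner of Usp8, at 3.82 and 5.52 in WT 2-cell embryos and 26.7 and 16.2 in cKO 2-cell embryos. Genes named in these counts without values were named after their values were seen. In zygotes limma called 0 genes of these 3 lists in either direction, Usp16 included, which was past 3-fold.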

How the data were processed

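RNA from 10 pooled embryos per sample was sequenced by Smart-seq2 in 8 libraries, 2 per group. The authors trimmed reads to 50 bp, mapped them to mouse mm9 with Tophat2 2.1.1, computed FPKM with Cufflinks 2.2.1 and deposited 1 table of FPKM per gene with values under 1 set to 1. The gene annotation and the division of reads between similar genes are not given in the sources used here. Without counts, neither depth nor counting error can be given. Not used here were the 7 ChIP-seq samples of H2AK119ub1.

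Groups followed the sample labels. Ratios of group means past 3-fold were called as in the study. limma 3.58.1 in R 4.3.3 was fitted to log2(FPKM + 1) of all 14392 genes, with 1 mean per group, a prior that follows the mean level and 4 residual degrees of freedom, and p-values were adjusted by Benjamini-Hochberg over all genes with a threshold of 0.05. Fold changes on this scale understate those of low genes. Whether replicates came from separate mothers is not stated, so that p-values measure the spread between these samples only. Values in every library are given for the 12 most abundant members in WT zygotes and in WT 2-cell embryos. For called members, up to 12 per direction, and for up to 4 genes per list, values are given in every library or only in groups compared. Members, role groups and lists were chosen with earlier results of these data known. Coordinates are from GENCODE M1 on mm9, found for all 55 members. Python 3.11.15, numpy 2.4.6, pandas 2.3.3 and matplotlib 3.10.9 were used. Alternatives changed the fold threshold, the type of mean, the pseudocount (0 or 5 for limma), the filter (mean FPKM of at least 3), the scaling, the limma model and the libraries. The replicate numbers are shared by the groups but no pairing is described, so the main fits have no replicate block. The crossed pairing of the 2-cell libraries was added after seeing the data.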

Additional observations from a re-analysis of the deposited data

Results flagged for a closer look

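The effect of maternal Usp16 loss at the 2-cell stage differed from that in zygotes by the interaction term of limma for 5 members. By the same term 1701 of all 14392 genes (11.8%) were called. The 5 of 55 members thus do not set the members apart from other genes. The log2 effect at the 2-cell stage minus that in zygotes was -2.36 for Uchl1, -1.5 for Usp46 and -1.0 for Usp9y, whose cKO 2-cell libraries were lower than WT, -0.40 for Usp25, and 1.18 for Usp33, whose cKO 2-cell libraries were higher. Usp9y and Usp25 were at the floor in all zygote libraries, so that their zygote effect was 0 by the floor. None of the 5 was called with the replicate number as a block. With 2 libraries in each group, no single library could be tested as lying apart.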

How the results depend on the processing

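For members that were called, no alternative reversed the direction of the call. For calls between 2 groups, this was fixed in advance when single libraries were left out. In each such call, both libraries of 1 group lay above both of the other. Of all 55 members, leaving out some single library reversed the direction of 5 between stages in WT, 26 between genotypes in zygotes and 16 in 2-cell embryos, among them Usp10 (2.998 to 0.95) and Otub1 (1.61 to 0.718) without cKO 2-cell replicate 1. In zygotes, every alternative gave 0 members in either direction by both rules. A 2-fold limit gave 12 members higher between stages in WT (36.5% of all genes), and 4 higher (8.75%) and 23 lower (28.6%) in cKO 2-cell embryos. With every library past 3-fold, 3 were lower between stages and 4 in cKO 2-cell embryos. Median-ratio scaling gave 3 higher and 3 lower in cKO 2-cell embryos by the 3-fold rule and 10 lower by limma. Quantile normalization gave 6 members that rose and 17 that fell between stages, 7 lower in cKO 2-cell embryos and 1 interaction. Weights per group gave 0 higher, 5 lower and 2 interactions, and the 4 2-cell libraries alone 0 higher and 0 lower. The replicate block gave 6 members that fell between stages in WT, 13 lower in cKO 2-cell embryos and 0 interactions. The deviations of same-numbered libraries correlated at 0.498 in zygotes and -0.239 in 2-cell embryos, over 2 pairs each, which are too few to say whether the numbers pair the libraries, and no source describes a pairing. Crossing the numbers in 2-cell embryos gave 1 higher, 17 lower and 1 interaction. Leaving out single libraries gave 7 to 10 higher and 5 to 7 lower between stages by the 3-fold rule, 0 to 3 higher and 5 to 15 lower in cKO 2-cell embryos, and by limma 8 to 16 and 6 to 13 between stages, 1 to 8 and 10 to 30 in cKO 2-cell embryos and 0 to 24 interactions. The causes were not tested, and apart from the 2-fold limit the shares of all genes are not given here. Ratios within equal replicate numbers equal ratios of geometric means by construction and gave 8 and 7 between stages and 0 and 10 in cKO 2-cell embryos.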

Other observations

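The order of the 55 members by level was nearly kept between genotypes in zygotes (Spearman rho = 0.991 across genes, which share libraries and are not independent replicates) and less so in 2-cell embryos (0.898). Between WT zygotes and WT 2-cell embryos it was 0.740.

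The median longest transcript was 3394 bases for the 9 members more than 3-fold lower in cKO 2-cell embryos and 4212 bases for the other 46.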
